A study of Mus musculus with 6 samples.

Results

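The genes described here are 50 genes of mitosis: kinases and cyclins of mitotic entry, the kinetochore, the spindle checkpoint, the chromosomal passenger complex, spindle motors, cytokinesis proteins and condensin. They were taken from a fixed list of symbols, and all 50 were found among the 23565 genes of the deposited count table. It comes from bulk RNA sequencing of epithelial cells that were sorted out of small-intestinal crypts of mice. One group was HopXCreER::Rosa26LSL-tdTomato mice, sorted for tdTomato alone (called Hopx-CreER here), and the other was Lgr5eGFP-IRES-CreER::Rosa26LSL-tdTomato mice, sorted for eGFP together with tdTomato (called Lgr5-CreER here), with 3 libraries each. Every mouse carried the Rosa26 reporter and was given 1 mg of tamoxifen, and crypts were harvested 16 hours later, so both groups share the drug and there is no untreated group. The labels give no age or sex, and the genotype changes with the sorting gate, so the 2 cannot be told apart. A cell was marked only if the Hopx or Lgr5 locus drove the Cre in it or in a cell it came from. What is compared is the whole sorted population at that one time, not a pure cell type.

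Mitosis is run by cyclin-dependent kinase 1 with its A- and B-type cyclins, by the Polo-like and Aurora kinases, and by the anaphase-promoting complex (APC/C), which ends the phase by marking cyclin B and securin for destruction. Kinetochores built on centromeres attach chromosomes to spindle microtubules, the checkpoint holds back the APC/C until every chromosome is attached, and condensin compacts the chromatids. Most of these genes are transcribed in G2 and M phase and silent in resting cells, so in the crypt their RNA marks the cycling cells: the columnar stem cells at the base and the transit-amplifying cells above them. The series asks how Hopx-marked and Lgr5-marked crypt cells differ, and this gene set bears on how much mitotic RNA each population holds.

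A sequence that many of these genes share lies in their promoters. The cell cycle genes homology region (CHR, searched as TTTGAA on both strands) is bound by the DREAM and MuvB complexes, which repress late cell cycle genes in resting cells and activate them in G2, and the CCAAT box (searched as CCAAT on both strands) is bound by NF-Y. A base could count toward both motifs. RefSeq windows of GRCm38.p6, from 250 bases before to 50 bases after a start site, were given for 43 of the 50 members, with 46 windows. A CHR match was in 36 of the 46 windows (78.3%), against 17.9% of all 32851 windows. A CCAAT match was in 34 (73.9%), against 37.4% of all windows, and both were in 30 (65.2%), against 6.95%. In the windows of the listed G1/S and DNA replication genes, CHR was in 4 of 38 (10.5%) and CCAAT in 22 (57.9%). A match is a run of letters and not a shown binding site. The 250 bases before the RefSeq start site are printed for 4 members, chosen after their values were seen: Cdc20 and Cdk1 as abundant members at near-equal levels in both groups, and Top2a and Mki67 as members whose Hopx-CreER libraries were all below the Lgr5-CreER libraries. Capitals mark the CHR and CCAAT matches, all sequences run 5' to 3' on the gene's own strand, which is the minus strand for each, and the regions are chr4:118437344-118437593 for Cdc20, chr10:69352913-69353162 for Cdk1, chr11:99024190-99024439 for Top2a and chr7:135716380-135716629 for Mki67.
Cdc20: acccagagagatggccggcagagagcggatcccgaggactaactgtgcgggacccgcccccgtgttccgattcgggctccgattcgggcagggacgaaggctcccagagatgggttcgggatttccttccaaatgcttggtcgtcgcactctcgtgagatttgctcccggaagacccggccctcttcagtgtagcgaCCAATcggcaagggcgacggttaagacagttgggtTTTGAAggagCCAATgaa
Cdk1: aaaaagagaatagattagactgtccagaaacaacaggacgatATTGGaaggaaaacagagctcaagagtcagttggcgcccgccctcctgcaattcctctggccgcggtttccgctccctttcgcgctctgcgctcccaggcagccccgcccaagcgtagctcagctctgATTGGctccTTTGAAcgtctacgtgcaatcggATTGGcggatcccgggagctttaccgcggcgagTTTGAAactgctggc
Top2a: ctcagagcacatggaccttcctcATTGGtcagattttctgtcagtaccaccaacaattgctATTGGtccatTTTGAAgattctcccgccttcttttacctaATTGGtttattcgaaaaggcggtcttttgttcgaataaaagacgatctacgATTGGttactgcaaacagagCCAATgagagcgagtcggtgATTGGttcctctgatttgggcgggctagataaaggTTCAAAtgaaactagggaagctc
Mki67: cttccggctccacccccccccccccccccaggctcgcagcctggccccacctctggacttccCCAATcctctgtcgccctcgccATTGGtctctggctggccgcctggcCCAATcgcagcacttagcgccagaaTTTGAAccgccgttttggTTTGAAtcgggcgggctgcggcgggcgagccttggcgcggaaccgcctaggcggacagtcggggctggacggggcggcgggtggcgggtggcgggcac
Cdc20 holds 1 CHR match and 2 CCAAT matches. Cdk1 holds 2 CHR matches, 71 and 15 bases before, and 3 CCAAT matches. Top2a holds 2 CHR and 6 CCAAT matches, and Mki67 holds 2 CHR matches, 116 and 98 bases before the start, and 3 CCAAT matches. The median log2 fold change was -0.12 for the 32 tested members with a CHR match and -0.11 for the 10 with a window and none.

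Among the 6 libraries Hopx-CreER library 3 stood apart, with low levels of genes low in GC, so calls, the median and several single genes are also given without it. Mitotic genes were found at close to the same summed level in Hopx-CreER and Lgr5-CreER cells, and none of them passed the test. The 50 members summed to 6191, 5408 and 5494 CPM in Hopx-CreER libraries 1, 2 and 3, an order kept in all lists of values, and to 5637, 5667 and 5860 CPM in Lgr5-CreER cells (CPM is counts per 1000000, scaled by TMM factors). The Lgr5-CreER sums lie inside the range of the Hopx-CreER sums, with means of 5721 ± 121 CPM for Lgr5-CreER and 5698 ± 430 CPM for Hopx-CreER cells (SD, n = 3 each). Members at low levels add little to these sums. In bulk RNA, fewer dividing cells and less RNA per dividing cell cannot be told apart. The test was the edgeR quasi-likelihood test over the whole table, with a gene called at a Benjamini-Hochberg adjusted p under 0.05. Of the 50 members, 49 passed its filter on low counts, 0 were called higher and 0 lower, against a background of 12.8% of the 12439 genes tested (9.45% higher and 3.3% lower in Hopx-CreER cells). At an unadjusted p under 0.05, 3 members passed (Mki67, Hjurp and Cenpf; 6.12% of those tested), against 27.3% of all genes, and DESeq2 and limma-voom called 0 members each. Without Hopx-CreER library 3, edgeR also called 0 members. All 3 libraries of one group lay outside the range of the other for 10 members (20.4%), against 34.9% of all tested genes. The median log2 fold change, Hopx-CreER minus Lgr5-CreER, was -0.12 over the tested members and -0.03 over all tested genes. Of the 49 tested members 32 were fitted below 0 (65.3%, against 52.8% of all tested genes). The median size of the log2 fold change, sign ignored, was 0.19 for members and 0.31 for all tested genes.

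A missed threshold does not show equal levels, so the width of each interval matters. For 33 of the 49 members the 95% interval of the log2 fold change lay wholly within a fold of 2 either way (67.3%, against 56% of all tested genes), and for 26 it lay within a fold of 1.5 (53.1%, against 28.3%). All of these were among the 38 members with a mean of at least 10 CPM, where 86.8% lay within a fold of 2, against 77.6% of all genes at that level. The exceptions at that level were Tpx2, Kif23, Ect2, Anln and Top2a. The 12 members under 10 CPM were Cenpe, Kif20b, Cenpf, Smc4, Mki67, Smc2, Kif15, Ndc80, Bub1, Ncapg, Ttk and Kif11. Their median SE was 0.50 on the log2 scale, against 0.12 for the more abundant members, and of the 11 of them that were tested none had an interval within a fold of 2.

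**Figure D1:**
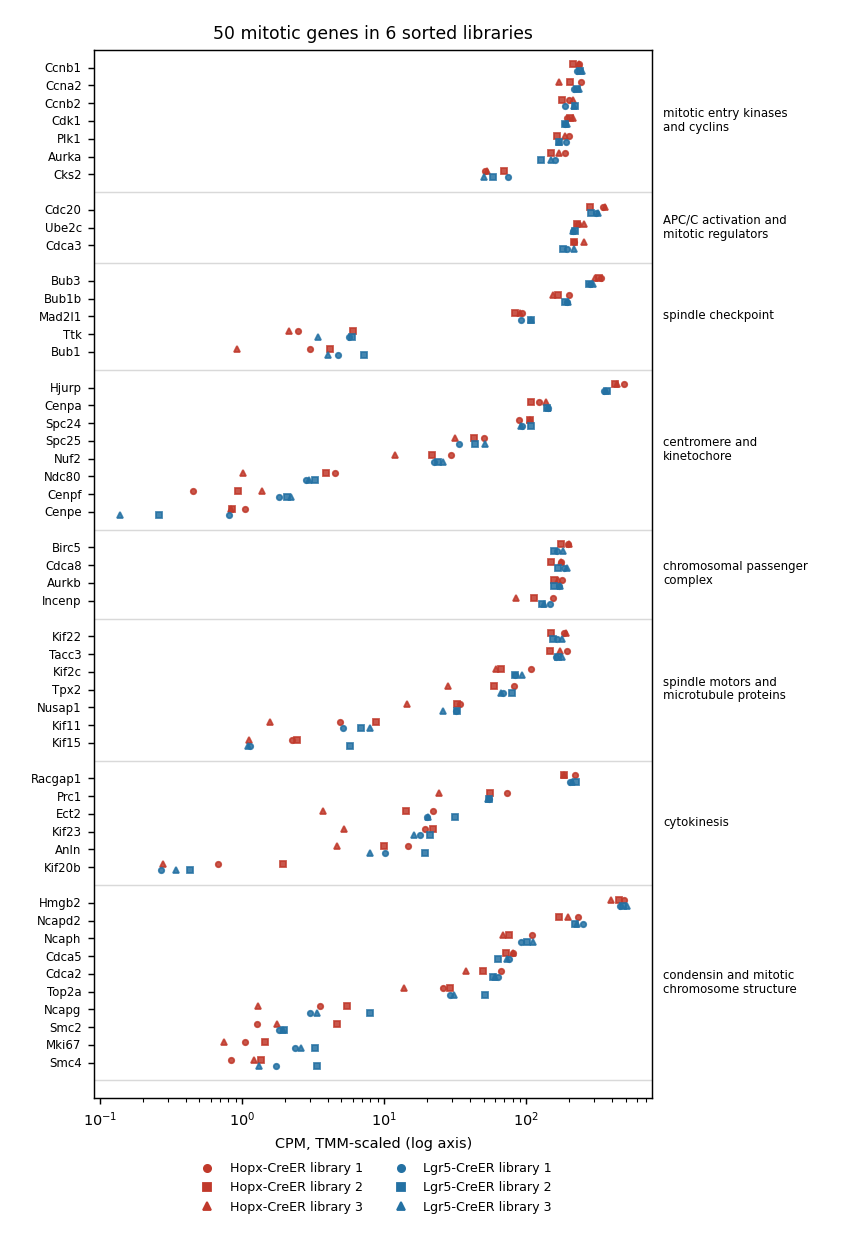
CPM of each of the 50 members (log axis) in the 3 Hopx-CreER libraries (red) and the 3 Lgr5-CreER libraries (blue), grouped by role and ordered by mean level. Most members above 100 CPM have overlapping red and blue points, while the points of members under 10 CPM are widely spread and Hopx-CreER library 3 (red triangles) is often lowest.

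The genes of mitotic entry lay close together in both groups. Ccnb2, a B-type cyclin and the member of this role with the most RNA per length, was 199, 180 and 212 CPM in Hopx-CreER cells (libraries 1 to 3) and 186, 221 and 216 CPM in Lgr5-CreER cells. The ranges overlap, and the log2 fold change was -0.08 (95% interval -0.33 to 0.18). Ccnb1, the other B-type cyclin, was 233, 215 and 233 CPM against 228, 237 and 248 CPM, with an interval of -0.28 to 0.16. Cdk1, the kinase these cyclins activate, was 193, 201 and 214 CPM against 188, 186 and 193 CPM. Its Hopx-CreER libraries were all higher, by very little (lowest 193.4, highest Lgr5-CreER value 193.2 CPM), and its log2 fold change was 0.10 with an interval of -0.12 to 0.32. Aurka, the Aurora kinase of centrosomes and spindle poles, had the largest fitted difference of this role at 0.22 ± 0.13 (SE; edgeR adjusted p 0.323). It was 188, 148 and 171 CPM in Hopx-CreER cells and 160, 127 and 149 CPM in Lgr5-CreER cells, so the groups overlap. The remaining members of this role were Ccna2, the A-type cyclin of S and G2 phase, Plk1, the Polo-like kinase, and Cks2, a small CDK partner. Their log2 fold changes ran from -0.14 to 0.07.

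The 3 members tied to APC/C action and mitotic regulation had fitted values above 0 and did not pass the test. Cdc20, the activator that brings substrates to the APC/C, had the highest level per length of all members, and was 347, 282 and 359 CPM in Hopx-CreER cells and 308, 284 and 319 CPM in Lgr5-CreER cells. Its log2 fold change was 0.12 (95% interval -0.15 to 0.39). Ube2c, the ubiquitin-conjugating enzyme of the APC/C, was 233, 227 and 256 CPM against 214, 221 and 214 CPM, with no overlap (0.14 ± 0.10, SE). Cdca3, an F-box-like protein tied to destruction of the Wee1 kinase, was 215, 218 and 256 CPM against 193, 181 and 215 CPM. Its ranges do not overlap at full precision, and the log2 fold change was 0.23 ± 0.12 (SE; edgeR adjusted p 0.247).

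Spindle checkpoint genes comprised an abundant and a scarce group, and none was called. Bub3, a WD-repeat protein that carries Bub1 and BubR1 to kinetochores, was 336, 327 and 303 CPM in Hopx-CreER cells and 281, 275 and 297 CPM in Lgr5-CreER cells. All Hopx-CreER libraries were the higher ones, by 0.18 ± 0.10 (SE, log2; edgeR adjusted p 0.275). Bub1b, which encodes the APC/C inhibitor BubR1, was 200, 167 and 153 CPM against 193, 186 and 196 CPM. Mad2l1, the checkpoint protein that binds Cdc20, was 93.7, 83.1 and 90 CPM against 91.1, 108 and 108 CPM. Bub1, the kinase that recruits the checkpoint, was scarce at 3.01, 4.14 and 0.928 CPM against 4.75, 7.26 and 3.99 CPM. Its counts ran from 10 to 84 per library, and its log2 fold change of -0.97 had a 95% interval of -2.10 to 0.16. Without Hopx-CreER library 3 it was -0.59, and without library 1 it was -1.06. Ttk, the Mps1 kinase at the head of the checkpoint, was likewise between 2.13 and 6 CPM.

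Centromere and kinetochore genes had fitted values on both sides of 0, with a median of 0.004, and none was called. Hjurp, the chaperone that loads the centromeric histone, was 486, 421 and 434 CPM in Hopx-CreER cells and 352, 369 and 363 CPM in Lgr5-CreER cells (447 ± 34.3 against 361 ± 8.77 CPM, SD, n = 3). The ranges do not overlap, and the log2 fold change was 0.31 ± 0.10 (SE; 95% interval 0.08 to 0.53; edgeR adjusted p 0.0794). Over 17 alternative settings the adjusted p of Hjurp ran from 0.0646 to 0.214. Cenpa, the centromeric histone itself, went the other way in its fitted value: it was 122, 109 and 138 CPM against 142, 140 and 141 CPM, -0.20 ± 0.12 (SE; edgeR adjusted p 0.307). The 4 subunits of the NDC80 complex, which grips the microtubule end, were not found at like levels. Spc24 was 88.4 to 108 CPM over all libraries and Spc25 was 31.5 to 50.9 CPM, while Nuf2 was 11.9 to 29.7 CPM and Ndc80 itself 1.02 to 4.52 CPM. For Nuf2 and Ndc80 the lowest value was Hopx-CreER library 3, and the groups overlap for each of the 4 genes.

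The RNAs of the long kinetochore proteins were near the counting floor. Cenpe, the kinetochore kinesin, was 1.05, 0.846 and 0.835 CPM in Hopx-CreER cells and 0.803, 0.259 and 0.138 CPM in Lgr5-CreER cells. These are 14, 10 and 9 counts against 12, 3 and 2 counts, and the 95% interval of the log2 fold change, -0.28 to 2.58, spans a large range. Cenpf, a large kinetochore protein added for its values, was 0.452, 0.93 and 1.39 CPM against 1.81, 2.07 and 2.2 CPM. These are 6, 11 and 15 counts against 27, 24 and 32 counts, with no overlap, and a log2 fold change of -1.14 ± 0.47 (SE; edgeR adjusted p 0.155).

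The chromosomal passenger complex, which corrects faulty attachments and guides cytokinesis, had no called member. Aurkb, its kinase, was 179, 157 and 166 CPM in Hopx-CreER cells and 170, 157 and 172 CPM in Lgr5-CreER cells, a log2 fold change of 0.01 with a 95% interval of -0.23 to 0.24. Birc5 (survivin) and Cdca8 (borealin), which target the complex to centromeres, had log2 fold changes of 0.18 ± 0.11 and -0.12 ± 0.11 (SE). Incenp, the scaffold, was 153, 114 and 84 CPM against 147, 129 and 133 CPM. Its spread in Hopx-CreER cells spans the whole Lgr5-CreER range, and its fitted value was -0.22 ± 0.19 (SE; edgeR adjusted p 0.506). It was -0.45 without Hopx-CreER library 1 and -0.04 without library 3, and was called in neither.

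Spindle motors and microtubule proteins did not differ beyond the spread between libraries by this test. Tacc3, a stabiliser of spindle microtubules, was 192, 148 and 172 CPM in Hopx-CreER cells and 162, 167 and 179 CPM in Lgr5-CreER cells, with an interval of -0.26 to 0.28. Kif22, a chromosome-arm kinesin, and Kif2c, a microtubule depolymerase, had log2 fold changes of 0.08 ± 0.12 and -0.15 ± 0.20 (SE). Tpx2, the activator of Aurora A, was 82.5, 59.3 and 28.3 CPM against 68.7, 79 and 65.9 CPM, and Nusap1, a microtubule bundler, was 34.4, 32.5 and 14.5 CPM against 32.3, 32.3 and 25.7 CPM. For both genes Hopx-CreER library 3 was lowest while libraries 1 and 2 lay at or near the Lgr5-CreER values. Without library 3 the log2 fold change of Tpx2 went from -0.33 to -0.02 and that of Nusap1 from -0.15 to 0.14. Without Hopx-CreER library 1 they were -0.70 and -0.35, and neither gene was called. Kif11, the motor that pushes spindle poles apart, was 4.9, 8.71 and 1.58 CPM against 5.15, 6.91 and 7.91 CPM. Kif15, a motor that backs up Kif11, was 2.26, 2.45 and 1.11 CPM against 1.14, 5.79 and 1.1 CPM, where a single Lgr5-CreER library stood high.

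None of the 5 tested cytokinesis genes was called. Their fitted values were all below 0, a direction that turned on leaving out Hopx-CreER library 3 for Prc1 (from -0.09 to 0.24) and Kif23 (from -0.24 to 0.16), while Anln moved from -0.35 to -0.03. Leaving out Hopx-CreER library 1 gave -0.44 for Prc1, -0.44 for Kif23 and -0.77 for Anln. Racgap1, a subunit of centralspindlin, was 220, 185 and 185 CPM in Hopx-CreER cells and 202, 226 and 211 CPM in Lgr5-CreER cells (-0.11 ± 0.11, SE). Ect2, which starts furrowing of the dividing cell, was 21.9, 14.2 and 3.71 CPM against 20, 31.6 and 20.2 CPM. Its log2 fold change was -0.84 ± 0.50 (SE; edgeR adjusted p 0.317), and without Hopx-CreER library 3, its lowest, it was -0.41 (edgeR adjusted p 0.351). Without Hopx-CreER library 1 it was -1.42 (edgeR adjusted p 0.105). Prc1, the midzone bundler, was 73.4, 55.5 and 24.3 CPM against 54.3, 54.4 and 54 CPM, so 2 Hopx-CreER libraries were above and 1 below. Kif23, the motor of centralspindlin, and Anln, the furrow scaffold anillin, had the same lowest library, at 5.19 and 4.64 CPM. Kif20b, a kinesin of late cytokinesis, did not pass the count filter, with 9, 23 and 3 counts in Hopx-CreER libraries and 4, 5 and 5 in Lgr5-CreER libraries.

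Condensin and chromosome structure genes ranged from the most abundant member to some of the scarcest. Hmgb2, a chromatin protein of proliferating cells and the most abundant member by CPM, was 487, 446 and 393 CPM in Hopx-CreER cells and 454, 482 and 509 CPM in Lgr5-CreER cells (-0.12, 95% interval -0.38 to 0.13). Of the condensin I subunits, Ncapd2 was 231, 169 and 196 CPM against 250, 219 and 229 CPM, and Ncaph was 110, 76 and 68.8 CPM against 92.3, 101 and 111 CPM. The other condensin I subunits were far lower: Ncapg lay between 1.3 and 7.95 CPM, and the ATPases Smc2 and Smc4 between 1.28 and 4.65 CPM and between 0.829 and 3.37 CPM. None of the 5 subunits was called. Cdca5 (sororin), which protects sister cohesion, and Cdca2 (Repo-Man), which brings a phosphatase to chromatin, had fitted values of 0.15 ± 0.12 and -0.24 ± 0.20 (SE).

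Top2a and Mki67, both widely used as proliferation markers, were lower in every Hopx-CreER library than in any Lgr5-CreER library, and did not pass the test. Top2a, the topoisomerase that untangles chromatids, was 25.9, 28.9 and 13.8 CPM against 29.1, 51.3 and 30.8 CPM. The gap between the highest Hopx-CreER and the lowest Lgr5-CreER value was small, and the log2 fold change was -0.69 ± 0.31 (SE; edgeR adjusted p 0.186). It was -0.45 without Hopx-CreER library 3 (edgeR adjusted p 0.259) and -0.39 without Lgr5-CreER library 2. Leaving out Hopx-CreER library 1 or 2 gave -0.79 and -0.89, and leaving out Lgr5-CreER library 1 or 3 gave -0.84 and -0.81. Mki67, which coats mitotic chromosomes, was 1.05, 1.44 and 0.742 CPM against 2.34, 3.28 and 2.62 CPM, that is 14, 17 and 8 counts against 35, 38 and 38 counts. Its log2 fold change of -1.33 ± 0.41 (SE; 95% interval -2.25 to -0.41; edgeR adjusted p 0.0642) was the largest of the members. Over the alternatives it ran from -1.59 to -1.08, and the adjusted p from 0.0501 (library totals alone as scaling) to 0.213. The abundant members of the same phase do not share this size of difference: Cdc20, Ccnb1, Cdk1, Plk1 and Aurkb had 95% intervals inside a fold of 1.5 either way.

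**Figure D2:**
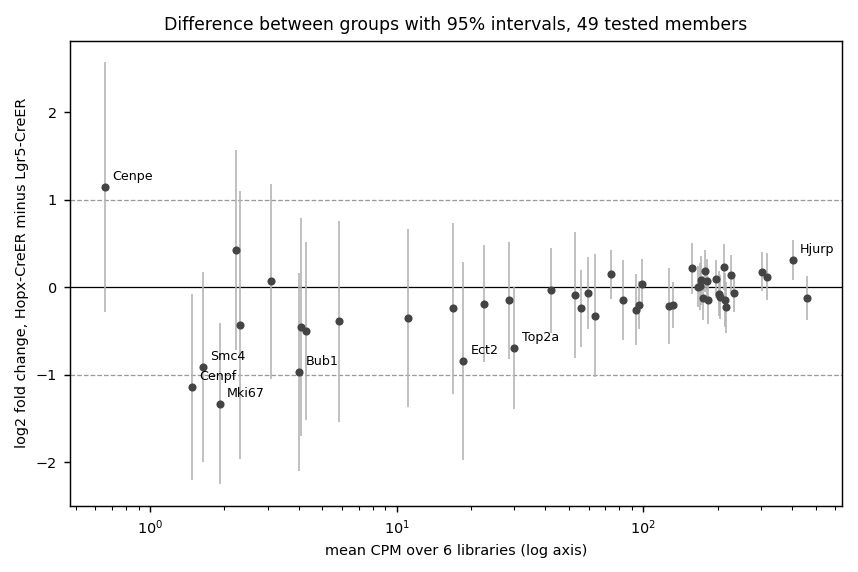
Log2 fold change of each of the 49 tested members, Hopx-CreER minus Lgr5-CreER, with its 95% interval, against the mean CPM over the 6 libraries (log axis). The dashed lines mark a fold of 2 either way. Members at the right have short intervals, which for Hjurp lies above 0 (0.08 to 0.53). Members under 10 CPM, such as Mki67, Cenpf and Cenpe, have long ones.

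Among themselves the members spanned a wide range of levels per length (CPM per kilobase of merged exons, written RPKM). Cdc20 was at 169 RPKM, Hmgb2 at 154 and Ccnb2 at 132, the 3 members above 100 RPKM, a level that 5.19% of all tested genes reached. Below 1 RPKM were 12 members, with Mki67 at 0.19, Cenpf at 0.0956 and Cenpe at 0.0761. Level went with the transcript: across the 49 tested members, Spearman rho between mean CPM and GC content of the longest transcript was 0.588, and between mean CPM and merged exon length -0.496, against 0.143 and 0.001 across all tested genes and 0.499 and -0.130 across the 157 tested genes of the other cell cycle lists. GC and length were themselves related among the members (rho -0.470). These are descriptions across genes that share the same 6 libraries.

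Libraries also differed in how they held the members low in GC. Members were split at the median transcript GC of the list, 46.5%. In the 24 tested members below it, the median log2(CPM + 0.5) relative to the Lgr5-CreER mean came to 0.00, -0.04 and -0.82 in libraries 1, 2 and 3 of Hopx-CreER cells, and 23 of 24 lay below the Lgr5-CreER mean in library 3, against 12 and 12 in libraries 1 and 2. In the 25 members at or above the median, the same medians were 0.14, -0.14 and 0.04, and 11 lay below in library 3. All tested genes in the same GC ranges showed a like pattern, at -0.49 in library 3 for the 3773 genes of low GC and 0.10 for the 8653 others. Hopx-CreER library 3 is the library whose column name alone carries a suffix after the gate, which the labels do not explain. The column name of Lgr5-CreER library 2 carries an addition to its number, also unexplained. Its part in the fitted values of the members was measured by leaving it out: the median log2 fold change then became -0.02, against -0.12 with it, and 21 members lay above 0 and 28 below, against 17 and 32 with it (65.3% below, against 52.8% of all tested genes). Leaving out Hopx-CreER library 1 instead moved the median the other way, to -0.23, with 15 members above 0 and 34 below. At an unadjusted edgeR p under 0.05, 8 members passed without library 1, against 4 without library 3 and 3 with every library. In each of these fits 0 members were called. With offsets for GC content 0 members were called as well, and the median was -0.07.

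**Figure D3:**
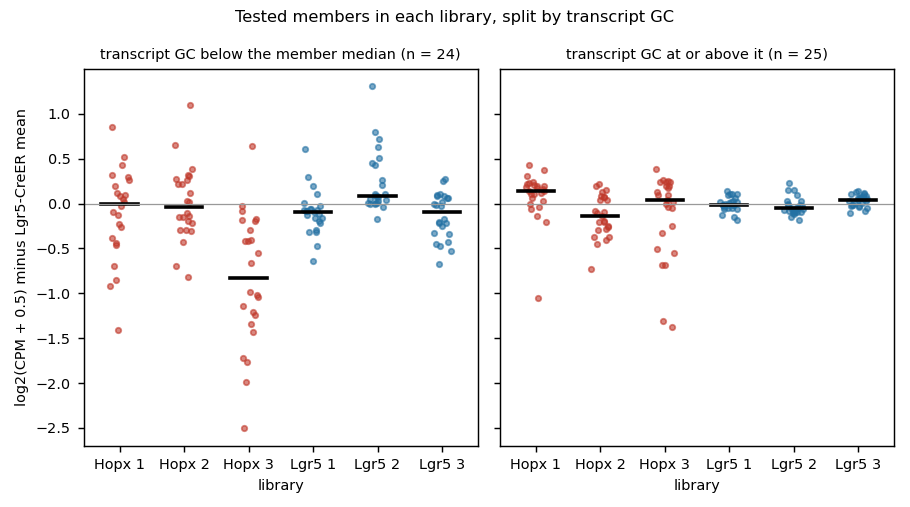
Log2(CPM + 0.5) of each tested member minus its Lgr5-CreER mean, by library, for the 24 members with transcript GC below the member median (left) and the 25 at or above it (right). Black bars are medians. The members of low GC sit at a median of -0.82 in Hopx-CreER library 3 and near 0 in the other libraries.

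Few of the other genes of mitosis were called, and the median log2 fold change of each list was below 0. It was -0.19 for other kinetochore genes, -0.20 for other spindle and cytokinesis genes, -0.06 for the APC/C, -0.39 for condensin II and cohesin, -0.14 for regulators and -0.24 for G1/S and replication genes, against -0.03 for all tested genes. Of the 30 tested genes among other kinetochore and centromere genes, 0 were called higher and 0 lower (0 at an unadjusted p under 0.05; 0 by DESeq2 and limma-voom). Mad1l1, a checkpoint protein, was called lower with GC offsets (-0.56) and without Hopx-CreER library 3 (-0.49). The smallest p-values belonged to Dsn1 and Mad1l1, with log2 fold changes of -0.37 ± 0.17 and -0.34 ± 0.15 (SE; edgeR adjusted p 0.186 and 0.188). Of the 13 tested genes of condensin II and cohesin 0 were called (1 at an unadjusted p under 0.05, 1 lower by DESeq2 and 0 by limma-voom), with Pds5a at -1.18 ± 0.40 and Ncapd3 at -0.33 ± 0.27 (SE; edgeR adjusted p 0.0886 and 0.471). Of 27 tested genes that regulate mitotic expression and entry 0 were called (3 at an unadjusted p under 0.05, 1 lower by DESeq2 and 0 by limma-voom). With GC offsets 3 were lower (E2f4, Mybl2 and Nfya), and without Hopx-CreER library 3 there were 2 (Rbbp4 and Wee1). Foxm1 and Mybl2, transcription factors that switch on G2 and M genes and named after their values were seen, were 90.5 ± 17.4 against 92.2 ± 11.9 CPM and 55.7 ± 7.36 against 68.1 ± 2.15 CPM (SD, n = 3). Nfya, the DNA-contacting subunit of NF-Y, was 3.04 ± 0.435 against 5.86 ± 0.146 CPM (edgeR adjusted p 0.0654), and Rbbp4, a histone-binding protein of the MuvB core, was 447 ± 29 against 562 ± 41.8 CPM (0.0743).

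The 6 genes called by edgeR, of 157 tested in these lists, were all lower in Hopx-CreER cells, and 2 of them act in mitosis. Among all tested genes 3.3% were called lower and 9.45% higher. Cit, the citron kinase of the midbody, was 20, 15.6 and 14.1 CPM in Hopx-CreER cells and 35.2, 32.5 and 31.5 CPM in Lgr5-CreER cells. Its log2 fold change was -1.0 ± 0.19 (SE; edgeR adjusted p 0.00966), and it was the 1 lower gene of 27 tested in the list of other spindle, motor and cytokinesis genes, where 0 were higher. It stayed called under each of the 17 alternatives. Numa1, which gathers microtubules at spindle poles, had -0.37 ± 0.13 (SE; edgeR adjusted p 0.111). Cdc23, an APC/C scaffold subunit, was 95, 86.3 and 86.4 CPM against 116, 120 and 113 CPM. Its log2 fold change was -0.38 ± 0.11 (SE; edgeR adjusted p 0.0455), and it was the 1 lower gene of 19 tested in the APC/C list, where 0 were higher, and its call was lost on leaving out any 1 of the 6 libraries. Cdc16, another scaffold subunit, was not called at -0.42 ± 0.12 (SE; edgeR adjusted p 0.0525), but was called lower without Hopx-CreER library 3 (-0.50). Of the 42 tested G1/S and replication genes 4 were lower and 0 higher (against 3.3% lower of all tested genes), namely Mcm2, Mcm3, Mcm6 and Rrm1. The count lower was 10 without Hopx-CreER library 3 and 1 to 2 without any other single library, and GC offsets gave 7 lower and 1 higher (Rrm2). Mcm6, a subunit of the replicative helicase, was 565, 560 and 503 CPM against 784, 793 and 765 CPM, a log2 fold change of -0.52 ± 0.10 (SE; edgeR adjusted p 0.00926) that stayed called under each alternative. Rrm1, the large subunit of ribonucleotide reductase, was 379, 340 and 294 CPM against 472, 462 and 436 CPM (-0.44 ± 0.12, SE; edgeR adjusted p 0.0389). The calls of Rrm1, Mcm2 and Mcm3 were lost on leaving out most single libraries. Summed over the G1/S list, CPM ranged from 5390 to 5827 in Hopx-CreER cells and from 6491 to 7277 in Lgr5-CreER cells, without overlap. The sums of other kinetochore genes were also lower without overlap, at 840 to 909 against 912 to 952 CPM. So were those of the APC/C list (1833 to 1956 against 2031 to 2080 CPM) and of the regulators (1972 to 2168 against 2224 to 2329 CPM). The sums of the other spindle list and of condensin II and cohesin overlapped. Whether the G1/S and mitotic lists differ in their shift was not tested.

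**Figure D4:**
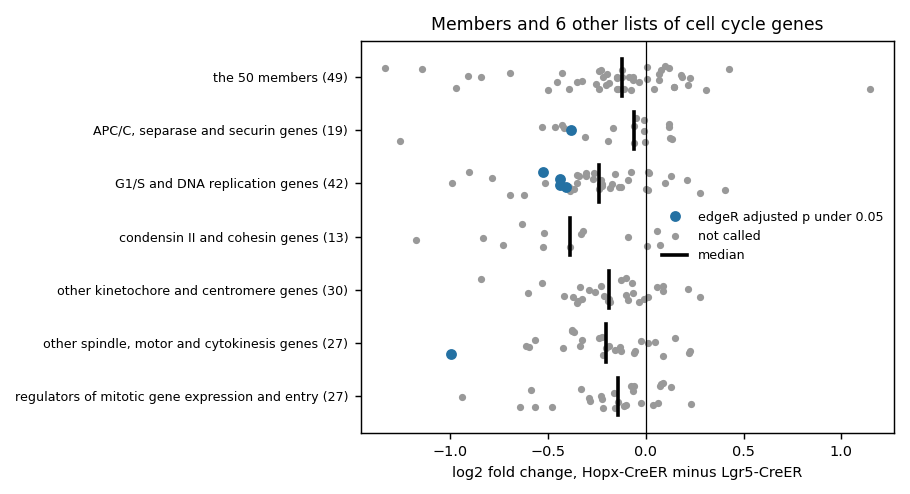
Log2 fold change, Hopx-CreER minus Lgr5-CreER, of the tested members and of the tested genes of 6 other lists (number of genes in brackets), with the median of each as a black bar. Blue points are genes called by edgeR: Cit, Cdc23, Mcm2, Mcm3, Mcm6 and Rrm1, all lower in Hopx-CreER cells.

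The mitotic genes stood beside large differences in the markers of other crypt cell types. Summed over fixed marker lists, Paneth genes were 14979 to 32572 CPM in Hopx-CreER libraries against 1666 to 3268 CPM in Lgr5-CreER libraries, with 9 of 10 called higher. Enteroendocrine genes were 2956 to 6282 against 186 to 329 CPM (9 of 11 higher), goblet genes 7147 to 10733 against 2086 to 2785 CPM (8 of 10 higher) and enterocyte genes 3280 to 6260 against 1641 to 2066 CPM (11 of 12 higher). Tuft genes were 185 to 868 against 99.9 to 143 CPM, with 7 of 8 tested called higher and Gnat3 at 0 in every library, and Lgr5 stem cell genes 3096 to 5035 against 10391 to 10951 CPM (10 of 12 lower). Hopx-CreER library 3 held the highest Paneth and enterocyte sums and the lowest stem cell and tuft sums of its group. The part of these cell types in the levels of the mitotic genes was not tested. Of the epithelial identity list 3 of 8 genes were called higher and 0 lower, and its sum was 17487 to 19437 against 12083 to 13014 CPM, without overlap. Within it 5 genes were fitted above 0 and 3 below. Epcam and Cdh1 were among those below, neither called. Epcam was 2207 ± 189 against 2251 ± 134 CPM and Cdh1 1334 ± 234 against 1664 ± 115 CPM (SD, n = 3). Immune markers summed to at most 6.68 CPM, with Itgax at 0. Of 12 listed mesenchymal, endothelial and red blood cell markers only 8 were in the count table. These summed to at most 3.64 CPM, with Col1a1, Cdh5 and Hba-a1 at 0.

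**Figure D5:**
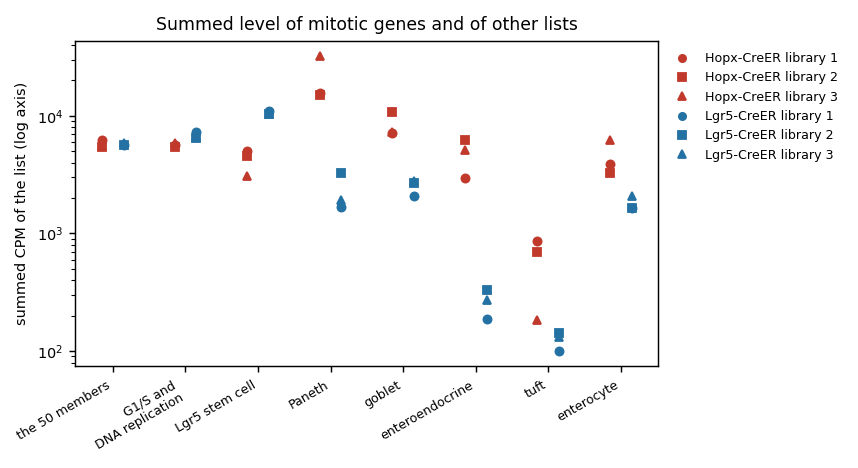
Summed CPM (log axis) of the 50 members, the G1/S list and 6 cell type marker lists in each library. The sums of the 50 members overlap between groups at 5408 to 6191 CPM, while the differentiated cell type lists are higher and the Lgr5 stem cell list lower in every Hopx-CreER library.

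Library totals ran from 10839306 to 14570555 counts, so 3 counts were worth 0.201 to 0.278 CPM. Lgr5-CreER libraries 2 and 3 carry the same number in their names. The series describes 3 mice per genotype, but which mouse gave which library is not in the labels. Every p-value thus measures the spread between these libraries, which may in part be technical. Hopx was 54.3 ± 9.65 against 89.8 ± 3.94 CPM and Lgr5 41.4 ± 17.7 against 107.8 ± 3.93 CPM. Both loci that carry a Cre were thus called lower in Hopx-CreER cells (edgeR adjusted p 0.0131 and 0.0147), Hopx included. Without strand information in the libraries, reads of a gene and its antisense neighbour cannot be told apart: 10 members share exon bases with a gene on the opposite strand, by over 10% for Ube2c (22.8%, with Tnnc2), Ncapg (13.4%), Ccna2 (12.5%) and Prc1 (11.1%). Ccnb1, Ccnb2 and Kif22 have processed pseudogenes annotated under their own symbols, so their split of reads is uncertain. Pseudogenes of the members under other names were not searched for.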

How the data were processed

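RNA was sequenced from 6 libraries of sorted crypt cells, 3 per group. Per the labels' protocols, cells were sorted into TRIzol LS and libraries were made by SMART-Seq and Nextera XT, kits without strand information. The authors deposited raw counts per mouse Ensembl gene, as whole numbers with no normalization. The tools named per the submitters' processing notes are edgeR and kallisto, without role or version, and the build named there, GRCh38, is human while the identifiers are mouse. How the counts were made is otherwise not stated, so the transcript set and build behind them are not given in the sources.

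Columns name the sorting gate and no replicate, so libraries are numbered in column order as names only. Symbols, positions, merged exon lengths and transcript GC came from GENCODE M21 (GRCm38), which matched 23479 of 23565 identifiers (versions stripped). The 2443 genes at 0 in every library carry no information. The main test was edgeR's quasi-likelihood test (edgeR 4.0.16, R 4.3.3), with TMM factors, filterByExpr and Benjamini-Hochberg adjustment over 12439 genes (threshold 0.05). The SE and the 95% interval of a log2 fold change come from its F statistic. The biological coefficient of variation was 22.5%. CPM values are counts scaled by these library sizes, and the reads carry no molecular identifiers. Alternatives were other scalings, DESeq2 1.42.0, limma-voom (limma 3.58.1), other filters, leaving out each library, summing the 2 columns with the same number, and GC offsets (a spline with 5 degrees of freedom per library).

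The members, lists and tests were chosen with earlier results of these data known. Values in every library are given, for each role, for the member with the highest level per length and the one with the largest fitted difference. From each other list the 2 genes of smallest p are named, among those with a group mean of 1 CPM or more. Other genes were named after their values were seen.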

Additional observations from a re-analysis of the deposited data

How the results depend on the processing

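The count of 0 members called higher and 0 called lower held under each of the 17 alternatives and at an adjusted p threshold of 0.01, and the smallest adjusted p of any member in any of them was 0.0501 (Mki67). The median log2 fold change of the members ran from -0.24 to 0.02 and stayed within 1 SD (0.20) of the spread between the Hopx-CreER library medians. Of the 49 members, 22 kept 1 sign under every alternative (7 above and 15 below 0) and 27 did not. Library totals alone as scaling moved the median of all genes by -0.114 (to -0.147) and that of members to -0.238, with calls over all genes split 938 higher and 729 lower, against 1176 and 410, and GC offsets gave 1175 and 701. The count of all genes called, 1586, was 790 with the 2 same-numbered columns summed, 654 at the threshold of 0.01, and 723 to 1868 on leaving out 1 library (723 without Lgr5-CreER library 2, 882 without Lgr5-CreER library 3, 944 without Lgr5-CreER library 1). The 6 genes called over the other cell cycle lists became 3 with RLE factors, 15 with library totals alone, 11 by DESeq2, 13 with GC offsets, 17 with GC offsets and without Hopx-CreER library 3 (added after the data were seen), 2 with those columns summed, 2 at the threshold of 0.01, and 2 to 15 on leaving out 1 library. The causes were not tested. No paired analysis was possible because the columns of the count table carry no replicate numbers of the labels. The 12 members under 10 CPM have the fewest counts, and whether depth or the spread between libraries widened their intervals was not tested.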

Other observations

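The other cell cycle genes showed a similar library pattern by transcript GC, as did all tested genes. Of the 157 tested genes of those 6 lists, the 71 with GC below 46.5% had a median log2(CPM + 0.5) relative to the Lgr5-CreER mean of -0.15, -0.10 and -0.56 in Hopx-CreER libraries 1, 2 and 3. The 86 others had medians of -0.12, -0.23 and -0.10. Across the members, the deviation of a library from the other 2 of its group followed GC with Spearman rho of -0.136, -0.698 and 0.518 for Hopx-CreER libraries 1, 2 and 3 and 0.528, -0.582 and 0.198 for Lgr5-CreER libraries 1, 2 and 3. The 3 deviations within a group are not independent of each other, and the values are descriptions across 49 genes.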
